A study of Rattus norvegicus with 10 samples.

Results

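The axonal transcriptome of adult rat sensory neurons was described from the 5 arrays hybridised with axonal RNA of adult animals, out of 10 arrays in the study. The other 5 arrays carry axonal RNA from embryonic day 16 and were not compared here. Per the labels, explants of dorsal root ganglia (DRG) from adult rats were cultured for 4 days in a chamber with compartments, and axons that had grown more than 1 cm were taken from the outer compartment. RNA extracted with Trizol was labelled with biotin by in vitro transcription and hybridised to an Affymetrix whole-genome rat expression array. No agent or genetic change is named for the adult group. The labels call the 5 samples biological replicates and give the cell type as DRG neurons. For age in weeks, sex, strain and how many animals a sample holds, no value is given in the sources used here. Each gene with a probe set of a single symbol was represented by the probe set with the highest mean over the 5 arrays, which gave 14217 genes, and these were ranked by their mean log2 value. Probe sets differ in how strongly they respond, so the ranks are ranks of signal and not of numbers of molecules.

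Sensory neurons of the DRG send long axons to skin, muscle and viscera. Their axons hold messenger RNAs and ribosomes, and proteins made in the axon are known to take part in its growth, its maintenance and its response to injury. In the ganglion the neurons are accompanied by satellite glia around the cell bodies, Schwann cells along the axons, resident macrophages and fibroblasts of the connective tissue. Macrophages are known to gather in a ganglion or nerve after axons are cut.

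The values of an array had a standard deviation (SD) of 1.49 to 1.63 on adult replicates 1 to 3 and of 2.05 to 2.07 on replicates 4 and 5. The background level of an array, taken as the 95th percentile over 110 probe sets that represent 95 genes known from other tissues, was 3.86 to 4.12 on replicates 1 to 3 and 2.87 to 2.91 on replicates 4 and 5. Above it were 5000 to 6263 genes on the former and 9607 to 9779 on the latter. Control transcripts added before labelling averaged 11.31 to 11.99 on replicates 1 to 3, 10.65 on replicate 4 and 7.75 on replicate 5. The probe sets at the 3′ end of actin exceeded those at its 5′ end by 3.03, 3.66, 5.21, 6.04 and 5.53 log2 units on replicates 1 to 5. For Gapdh this difference was 5.80 on replicate 5 and 3.47 to 4.48 on the others. Over all genes, the values of replicates 4 and 5 correlated across genes at r = 0.892, and the other pairs of arrays at 0.659 to 0.764. Replicates 4 and 5 therefore stood apart from the other 3, and the movement of the axonal, glial and immune lists is also given within each of these sets of arrays, a division chosen after the data had been seen. The part that array quality plays in them was not tested.

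On all 5 arrays 3289 of the 14217 genes exceeded the background level (23.1%), and on at least 1 array 10894 did (76.6%). The labelled cell type was checked against defining markers. Of 6 sensory neuron markers, 5 were above background on every array, namely Prph, Sncg, Nefl, Calca and Scn10a, and Uchl1 was above it on replicates 3, 4 and 5. All 5 macrophage markers, Cd68, Adgre1, Csf1r, Aif1 and Lyz2, were above background on every array as well. Of the Schwann cell markers, S100b was above background on all 5 arrays, Erbb3 on 4 and Sox10 on 3. For satellite glia, Glul was above background on all 5 arrays, Fabp7 on replicates 3, 4 and 5, and Kcnj10 on none. The fibroblast markers Col1a1, Col3a1, Dcn and Pdgfra were all above background on replicates 3, 4 and 5, but only 1 of 4 was on replicate 1 and 2 of 4 on replicate 2. The endothelial markers Pecam1 and Kdr were above background on no array. In RNA of a bulk preparation, a smaller number of cells of a type and less RNA per cell cannot be told apart, which holds for every gene group below.

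The highest signals included genes of protein synthesis, of mitochondria and of macrophages. Which cells their RNA came from was not tested. Cytosolic ribosomal proteins made up 15 of the 30 genes with the highest means and 27 of the first 100, a set that holds 0.703% of all genes. Of 42 ribosomal protein genes measured, 39 exceeded background on each of the 5 arrays (92.9%, against 23.1% of all genes). Their median rank was 42, against 7109 for all genes. Many ribosomal protein genes have near-identical pseudogene copies, and how far these share probes was not tested. The means of the 100 highest genes lay between 9.60 and 12.92, and all 100 were detected above background on each array.

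Rps23, a protein of the small ribosomal subunit close to the decoding centre, had values of 12.16, 11.88, 11.74, 12.94 and 13.25 on replicates 1 to 5. It was the gene ranked 2 and was highest on replicates 4 and 5. Rpl5, which binds the 5S ribosomal RNA, was at 11.17, 10.63, 9.97, 12.30 and 12.69 and had the same arrays on top. Rps29 was at 11.04, 11.03, 10.91, 11.84 and 11.87, and its array values spread over 0.95 against 2.72 for Rpl5. Rps3a had the widest spread among the first 30, with 10.37, 10.44, 9.03, 12.06 and 12.44. The remaining ribosomal proteins of the first 30 were Rpl26, Rps28, Rpl13a, Rpl37a, Rpl35, Rpl41, Rpl27a, Rpl18, Rpl7a, Rpl22 and Rps6, with means from 10.83 to 11.28. Of 40 ribosomal protein genes above background on any array, 25 were highest on replicate 5 and 14 on replicate 4, where 30.2% and 30% of all such genes had their highest value. The list mean was 9.31, 8.97, 9.29, 10.69 and 10.80 on replicates 1 to 5.

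Messenger RNAs of ribosomal proteins are known to begin with an unbroken run of C and T bases, the 5′ terminal oligopyrimidine tract, through which their translation is controlled. The sequence around the annotated start, from 10 bases before it to 20 after it, was therefore read from the RefSeq promoter table (build GRCr8), and a run of at least 8 bases that are each C or T was searched on the sense strand. It was present in 19 of 35 ribosomal protein genes found in the table (54.3%), in 6 of 29 translation factors (20.7%) and in 10.6% of all 27457 genes of the table. Among the first 100 genes it was present in 18 of 76 (23.7%), and among those without the ribosomal proteins in 9 of 54 (16.7%). It was present in 9.96% of the genes detected on all 5 arrays. The windows of the 8 highest ribosomal proteins found in the table, and of Eef1a1 and Lyz2, are shown, 5′ to 3′ on the strand of the gene, with the longest run of C and T in capitals where it is 6 bases or more.
Rps23, chr2:23814507-23814536, plus strand: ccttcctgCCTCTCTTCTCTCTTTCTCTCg
Rpl5, chr14:1995206-1995235, minus strand: CTTTCCCacgtcgcttgcgtcctggaggtg
Rpl26, chr10:54109682-54109711, plus strand: gtcaacttacagaaccggaagtcgcatgta
Rpl13a, chr1:104748894-104748923, minus strand: TCCTTTCCTaggcggctgccgaagatggcg
Rpl27a, chr1:172974563-172974592, plus strand: cttggtgggCTCCTCCCTCTTTCTTTTCTg
Rpl35, chr3:43165902-43165931, minus strand: CTTCCTCTTTCTCTCgaaccgggcggcctc
Rps28, chr7:15311314-15311343, minus strand: ccctgctcacgtgaCTCCTCTCCgctagat
Rpl41, chr7:1563478-1563507, minus strand: ctcggaagtgacgacaccaagcacgccatt
Eef1a1, chr8:88225050-88225079, minus strand: ttggacgTTCTTTTTCgcaacgggtttgcc
Lyz2, chr7:54797992-54798021, minus strand: TTCTCTagtcagccggcagctggtccagct
The runs were 21 bases long in Rps23, 20 in Rpl27a and 15 in Rpl35. In Rpl26 and Rpl41 the longest run was 3 bases and in Rpl5 7, and a missing run says only that these letters are not in this window at the start annotated first.

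**Figure D1:**
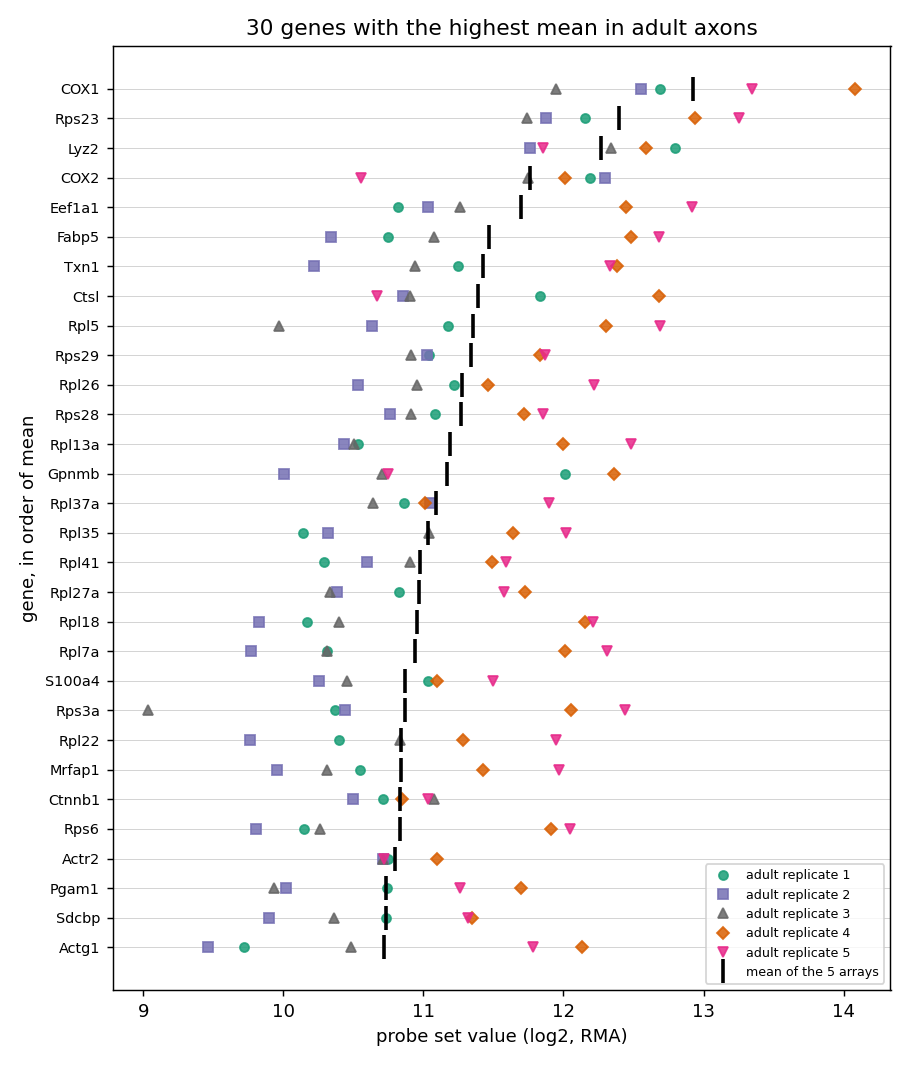
Values of the 30 genes with the highest mean, as log2 probe set values on the horizontal axis, with a symbol for each of the 5 adult replicates and a bar for their mean. Replicates 4 and 5 hold the highest value of 27 of the 30 genes, while Lyz2 is highest on replicate 1 and COX2 is lowest on replicate 5.

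Mitochondrial respiration was also near the top. COX1, a subunit of cytochrome c oxidase encoded in the mitochondrial genome, had the highest mean of all genes, 12.92 ± 0.82 (SD, n = 5), with 12.69, 12.56, 11.95, 14.08 and 13.35 on replicates 1 to 5. COX2, another subunit encoded there, was at 12.19, 12.30, 11.75, 12.01 and 10.56. The order of the arrays therefore differed between these genes, replicate 5 being the lowest for COX2 and among the highest for COX1. Of 68 nuclear genes of oxidative phosphorylation, all 68 were above background on at least 1 array and 53 on all 5 (77.9%). Of all genes 76.6% and 23.1% were, and the median rank of these 68 was 915. Among them Ndufa1, of respiratory complex I, had a mean of 10.53, Cox6c, of cytochrome c oxidase, 10.15, and Atp5f1e, of the ATP synthase, 9.88. Of 17 glycolytic genes, 9 were above background on all 5 arrays (52.9%, against 23.1% of all genes). They were led by Pgam1 at 10.73, Pgk1 at 9.81 and Ldha at 9.46. Ldha, which makes lactate, was at 8.23, 7.45, 8.97, 11.49 and 11.19, so replicates 4 and 5 lay above all the others.

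Eef1a1, the elongation factor that brings aminoacyl-tRNA to the ribosome, was at 10.82, 11.03, 11.26, 12.44 and 12.92. It led the translation factors, followed by Eef1b2 at 10.33 and the ribosomal scaffold Rack1 at 9.89. Of 32 translation factors, 26 were above background on all 5 arrays (81.25%, against 23.1% of all genes). Other genes of the first 30 were Fabp5, a fatty acid binding protein, at 11.46, Txn1, the redox protein thioredoxin, at 11.43, and S100a4, a calcium-binding protein, at 10.87. Ctnnb1, the adhesion and signalling protein beta-catenin, was at 10.83 ± 0.24. Actr2, a subunit of the Arp2/3 complex that nucleates branched actin, was at 10.80 ± 0.17. Actg1, cytoplasmic gamma-actin, was at 9.72, 9.46, 10.49, 12.13 and 11.78, high on replicates 4 and 5. Sdcbp, a scaffold protein of membrane traffic, and Mrfap1 completed the first 30 with means of 10.73 and 10.84.

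Lyz2, the lysozyme of macrophages, ranked 3 among all genes, with 12.79, 11.76, 12.34, 12.59 and 11.85 on replicates 1 to 5. Its arrays spread over 1.03, and its values on replicates 4 and 5 lay on either side of that on replicate 3. Gpnmb, a membrane glycoprotein of activated macrophages, was at 12.01, 10.01, 10.70, 12.36 and 10.75. Ctsl, the lysosomal protease cathepsin L, was at 11.83, 10.85, 10.90, 12.68 and 10.67, and like Gpnmb it was highest on replicate 4 and next on replicate 1.

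**Figure D2:**
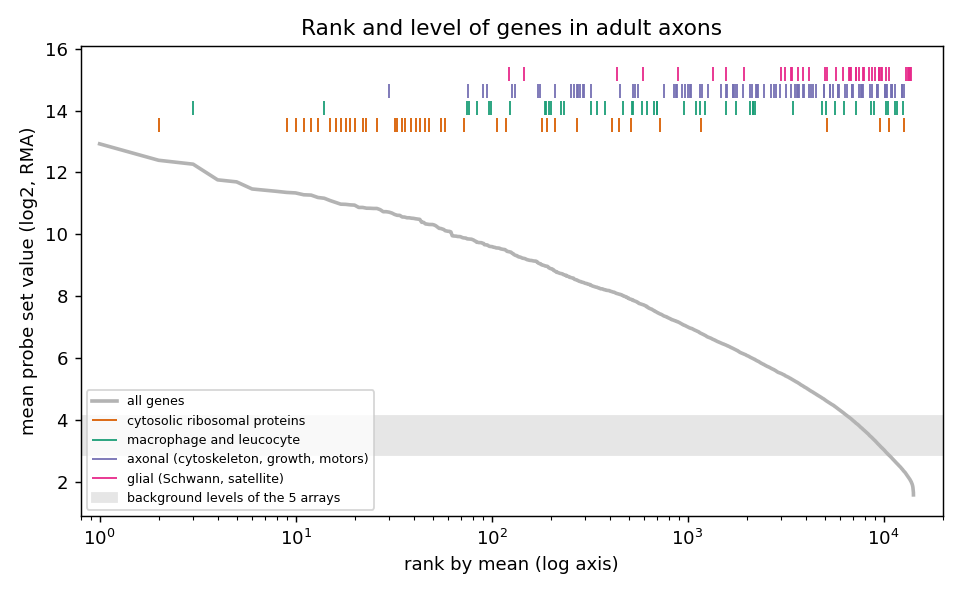
Mean log2 value of each of the 14217 genes against its rank on a log axis, with the ranks of 4 groups of genes as ticks above the curve (tick height has no meaning) and the background levels of the 5 arrays as a grey band. Ribosomal proteins crowd the left (median rank 42), macrophage genes follow (700.5), and the axonal (2805) and glial (6784) genes spread further right.

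Axonal genes ranked lower, with a median rank of 2805, than the lists of protein synthesis, energy metabolism and macrophages. Over the lists of the axonal cytoskeleton, axonal growth and axonal motors, 54 of 98 measured genes were above background on all 5 arrays (55.1%, against 23.1% of all genes) and 4 were among the first 100. By list this was 22 of 30 cytoskeletal genes, 15 of 36 growth genes and 17 of 32 motor genes. The 3 highest of these genes were Actg1 and the small GTPase Rac1 (mean 9.71), which most cells express, and between them the neuronal Gap43.

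Gap43, a protein of growing axon tips, was at 9.08, 9.55, 9.32, 9.71 and 11.60. It ranked 76 among all genes, and replicate 5 stood above the other 4. Stmn2, a neuronal protein that binds tubulin, was at 7.57, 8.34, 7.23, 8.34 and 10.75, and Tubb2b, a beta-tubulin, at 7.32, 7.68, 7.80, 8.55 and 11.01. Both were again highest on replicate 5. Dpysl2, which promotes microtubule assembly in axons, had the highest mean of the cytoskeletal list, 9.32 ± 0.38, with 9.0, 8.99, 9.83, 9.62 and 9.18 and no array apart.

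The neurofilament family did not move as a block. Prph, peripherin of small sensory neurons, was at 5.20, 8.48, 6.04, 7.18 and 8.98, with replicates 2 and 5 on top. Nefm was at 8.35, 8.55, 6.10, 8.69 and 7.50, lowest on replicate 3, and Nefl at 4.38, 7.60, 7.25, 4.03 and 6.38, highest on replicates 2 and 3. Tubb3, the neuronal beta-tubulin, was weaker, at 3.93, 3.91, 4.24, 4.30 and 6.31, and lay within 0.12 of the background level on the first 3 arrays. Sncg, gamma-synuclein of sensory neurons, was at 6.01, 9.31, 9.49, 7.54 and 10.64, low on replicate 1.

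Among the motors, Klc1, a kinesin light chain, was at 8.76, 9.04, 8.71, 9.37 and 9.47, which is a spread of 0.75. Kif5b, the ubiquitous kinesin heavy chain, was at 9.44, 9.94, 6.98, 8.86 and 8.82, and Dync1li2, a light intermediate chain of dynein, at 8.85, 9.41, 6.67, 8.21 and 9.61. Replicate 3 was the lowest for both. The neuronal kinesin Kif5c was weaker, at 3.84, 4.71, 4.66, 6.83 and 6.07, and this probe set was below background on replicate 1, where another probe set of the gene was above it at 4.21. Kpnb1, the importin beta that carries injury signals along axons, was at 4.12, 3.79, 3.80, 7.96 and 5.91 and was above background on 3 of 5 arrays.

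Peptides and receptors of sensory neurons were not above background more often than genes in general. Of 34 sensory peptides and receptors, 23 were above background on at least 1 array and 6 on all 5 (17.6%), where 76.6% and 23.1% of all genes were. Calca, which encodes the pain peptide CGRP, led them with 7.59, 8.84, 7.64, 6.58 and 10.21. Gal, the peptide galanin that rises in injured sensory neurons, was at 6.12, 6.34, 5.43, 5.32 and 9.88, and Npy, another such peptide, at 4.49, 5.94, 4.82, 4.92 and 9.74. All 3 peptides were highest on replicate 5, and Calca and Gal were lowest on replicate 4. Scn10a, the sodium channel of nociceptors, was at 5.87, 5.91, 6.37, 4.46 and 4.39, so the peptides and this channel had different arrays on top. Of 38 genes of synaptic release 8 were above background on all 5 arrays (21.1%), also near the 23.1% of all genes. They were led by the vesicle protein Sv2b at 8.0, Napa at 6.68 and complexin Cplx1 at 6.68.

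Map2, a protein of dendrites and cell bodies, was at 1.59, 2.95, 3.53, 1.38 and 5.10 and was above background on replicate 5 alone. Of 18 nuclear transcription factors of sensory neurons, 8 were above background on no array and 5 on all 5 (27.8%), where 23.4% and 23.1% of all genes were. The highest of them, Runx1, is also a regulator of blood cells and was at 8.36, 8.88, 7.42, 6.07 and 5.08. Isl1 was at 5.05, 4.63, 4.61, 3.31 and 3.33, which was 0.41 to 1.13 above the background level of each array.

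Macrophage genes were broadly present. Of 48 macrophage and leucocyte genes, 43 were above background on at least 1 array and 32 on all 5 (66.7%, against 23.1% of all genes), and 7 were among the first 100 genes. Adgre1, the macrophage surface receptor F4/80, was at 9.31, 9.75, 10.85, 10.22 and 7.96. Cd68, a lysosomal glycoprotein of macrophages, was at 9.73, 8.81, 9.76, 9.95 and 8.90, and Fcer1g, the signalling chain of Fc receptors, at 10.34, 9.46, 9.92, 10.47 and 9.07. Replicate 5 was the lowest for Adgre1 and Fcer1g and replicate 2 for Cd68.

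Lysosomal and endosomal genes were also often detected, with 24 of 30 above background on all 5 arrays (80%, against 23.1% of all genes). Their median rank was 780. Besides Ctsl the highest were Cd63, a tetraspanin of late endosomes, at 9.91 and the protease Ctsb at 9.73. Of 48 cytokines, chemokines and complement genes 14 were above background on all 5 arrays (29.2%, against 23.1% of all genes). Cxcl13, a chemokine that attracts B cells, was at 9.90, 10.07, 10.58, 8.98 and 9.12, whereas Ccl2, which attracts monocytes, was at 9.83, 7.53, 7.65, 10.73 and 10.45. The arrays on which these chemokines were high were therefore not the same. Of 24 antigen presentation genes 9 were above background on all 5 arrays (37.5%), led by B2m at 10.39, the light chain of class I molecules. The class II genes were lower. RT1-Da was at 8.33, 8.06, 6.34, 5.95 and 4.62, and the class II invariant chain Cd74 at 7.75, 5.29, 6.14, 6.42 and 5.98.

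Glial genes were above background about as often as genes in general. Of 24 Schwann cell and myelin genes 20 were above background on at least 1 array and 5 on all 5 (20.8%), and of 18 satellite glia genes 15 and 4 (22.2%), where 76.6% and 23.1% of all genes were. Pmp22, a myelin membrane protein that other cells also express, was at 8.53, 9.62, 10.02, 8.06 and 10.96. Mbp, myelin basic protein, was at 5.13, 7.66, 9.50, 7.51 and 8.78, lowest on replicate 1. S100b was at 5.71, 6.45, 7.31, 5.80 and 10.58, and Sox10, the transcription factor of Schwann cells, at 3.72, 3.94, 4.31, 2.64 and 5.85. Both were highest on replicate 5. Erbb3, the third Schwann marker measured, was not, at 3.26, 4.82, 4.87, 3.02 and 3.16, with replicates 2 and 3 on top. Of the 20 Schwann cell and myelin genes above background on any array, 13 were highest on replicate 5. Apoe, made by satellite glia and by macrophages, was at 6.51, 11.17, 9.63, 10.29 and 8.49 and had yet another order.

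Other cell types were represented to different degrees. Of 36 fibroblast and matrix genes, 34 were above background on at least 1 array but 6 on all 5 (16.7%), where 76.6% and 23.1% of all genes were. Their number above background was 9, 14, 20, 29 and 32 on replicates 1 to 5, while that of all 14217 genes was 6263, 6094, 5000, 9607 and 9779. Dcn, the matrix proteoglycan decorin, was at 2.78, 4.72, 9.30, 10.84 and 10.21, which made it one of the genes that differed most between arrays. Mgp, matrix Gla protein, was at 8.42, 7.49, 9.59, 11.23 and 12.90, and Fn1, fibronectin, at 5.65, 2.84, 6.41, 9.78 and 7.16. Of 21 endothelial and mural genes 1 was above background on all 5 arrays, of 22 lymphocyte, mast cell and granulocyte genes 0, and of 9 erythroid genes 1, Hbb. Of 24 muscle genes 19 were above background on no array. Of the other 5, Tnni1 was above it on 4 arrays and Tnnc1 on 3, at means of 3.51 and 4.27, and a single gene was above it on all 5. This was Myh1, a myosin heavy chain of skeletal muscle, at 10.75, 10.96, 9.59, 11.13 and 8.93, and all 5 of its probe sets were above background on all 5 arrays, with means from 7.81 to 10.27. The other 4 probe sets of Myh1 were highest on replicate 1, while the chosen one was highest on replicate 4. Whether its probes bind other transcripts was not tested.

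Few genes were steady over the 5 arrays. Of the 3289 genes above background on all 5, 218 (6.63%) had values within 1 log2 unit, that is within 2-fold, and the median range was 2.32. Of the 100 highest genes 6 were steady, namely Rps29, Ctnnb1, Actr2, Gdi2, Prr13 and Rtn4. Ctnnb1 was at 10.71, 10.50, 11.08, 10.85 and 11.03, and replicate 4 was not apart for it. Actr2 was at 10.75, 10.71, 10.71, 11.10 and 10.72, so 4 of its arrays lay within 0.04 of each other. Other probe sets of these genes were less steady, with ranges of 0.89 and 1.47 for Actr2 and of 1.26 for Ctnnb1. Rtn4, which encodes the axon growth inhibitor Nogo, was lowest on replicate 2, at 9.15, and highest on replicate 1, with 9.90, 9.48 and 9.74 on replicates 3 to 5. Of the genes ranked 101 to 500, 5.03% of those above background on all arrays were steady, and of those ranked 501 to 1000, 1.07%. The share was 2.33% for ranks 1001 to 2000 and highest, 10.9%, for ranks 2001 to 14217, which held 169 of the 218 steady genes.

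The gene with the smallest SD was Mfsd13a, at 4.04, 4.25, 4.18, 4.15 and 4.13 (SD 0.08). It lay 0.06 to 0.39 above background on the first 3 arrays. The only gene with a mean above 6 among the 12 of smallest SD was Sf3b1, a core subunit of the spliceosome, at 8.74, 8.55, 8.59, 8.70 and 8.48 (8.61 ± 0.10), although its other probe sets were weaker, with means of 4.41 and 2.03. The others of these 12 were Sugp1, Gtpbp6, Parg, Mvb12b, Fbxo34, Itga3, Arrdc1, Akap1, Srek1ip1 and Klf2, with means from 4.12 to 5.62. Which genes were steady depended on the scaling of the arrays. After quantile scaling 214 genes were steady, of which 38 were among the 218, and after cyclic loess scaling 317, of which 31 were. In all, 14 genes were steady under the deposited, quantile, median and loess values, and 0 of these were among the first 500 genes.

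**Figure D3:**
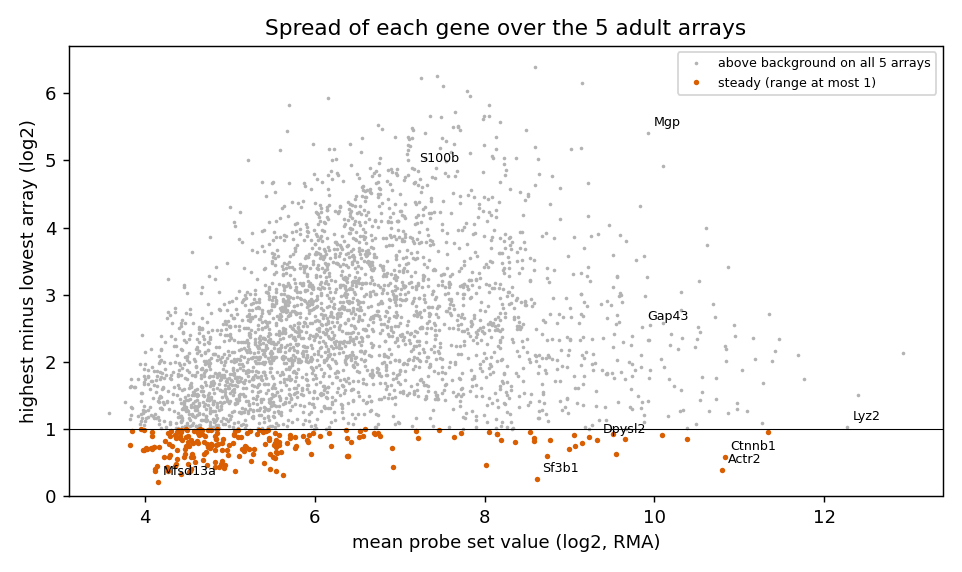
Highest minus lowest array against the mean log2 value for the 3289 genes above background on all 5 arrays, with the 218 genes that stay within 1 log2 unit in orange. Most steady genes lie near the background at the left, and Actr2 and Ctnnb1 are steady at means of 10.80 and 10.83.

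The genes with the widest range among those above background on at least 2 arrays included genes of inflammation, matrix and metabolism. Cd59b, an inhibitor of complement attack, had the widest, 8.54, with 6.26, 5.64, 2.76, 7.91 and 11.30. Ptgs2, the inducible cyclooxygenase, was at 7.12, 7.23, 1.99, 10.46 and 7.69, with a minimum on replicate 3. Mmp12, the elastase of macrophages, was at 3.67, 4.81, 4.00, 11.68 and 5.96, and Cxcl1, a chemokine for neutrophils, at 3.85, 3.15, 6.03, 10.88 and 7.03. Both stood out on replicate 4, as did Ptgr1 with 11.14 on that array and 3.43 to 5.21 on the others. Slc7a11, the cystine transporter, was high on replicates 1 and 4, at 8.98 and 9.99, and low on replicates 2 and 3, at 2.74 and 2.40. The chaperone Hspd1 had 3.58 on replicate 2 and 7.97 to 11.51 elsewhere. Fdps, of sterol synthesis, and Ncoa7 completed the 10 widest, together with Dcn.

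The lists of axonal, glial and immune genes were then followed from array to array. Each mean was taken over the members above background on at least 1 array, which were 90 axonal, 35 glial and 102 immune genes. A gene can thus enter through the array on which it is highest, and the counts of highest arrays below share this choice. For the 10894 genes above background on at least 1 array, the means were 5.27 and 5.29 on replicates 4 and 5, against 4.39 to 4.56. Replicates 4 and 5 had the lower background, and 9607 and 9779 genes passed it there, against 5000 to 6263 on the others. Their higher means can therefore come in part from the filter, and how much was not tested. Over all probe sets except controls, the medians were instead lower there, at 2.85 and 2.92 against 3.10 to 3.14. The list means are also given after subtracting the mean of all 10894 detected genes on the array, a baseline that shares this filter.

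The axonal mean was 5.48, 5.91, 5.58, 6.19 and 6.96 on replicates 1 to 5, and relative to all detected genes 0.92, 1.51, 1.18, 0.92 and 1.67. Replicate 5 was highest on both scales. The relative range was 0.74 against 1.48 for the unadjusted mean, and without replicate 5 the latter fell to 0.76. Over all measured members the unadjusted range was 1.29. Of the 90 genes 49 had their highest value on replicate 5 (30.2% of all genes did) and 3 their lowest (11.3%). The lists of synaptic release and of sensory peptides and receptors are not part of this mean. Unadjusted, both were highest on replicate 5. Relative to all detected genes, both were instead highest on replicate 2, at 0.36 and 0.11, against -0.46 and -0.09 on replicate 5.

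The glial mean was 4.31, 4.50, 4.83, 4.67 and 6.28, and relative to all detected genes -0.25, 0.11, 0.43, -0.60 and 0.98. Replicate 5 was again highest on both scales, and replicate 4 was lowest on the relative one. The unadjusted range of 1.97 rested on replicate 5, since it was 0.49 without it. Of the 35 genes 20 were highest on replicate 5 and 0 lowest there (30.2% and 11.3% of all genes). All 20 Schwann genes among the 35, and 14 of the 15 satellite glia genes, were above background on replicate 5. On the other arrays 8 to 15 and 6 to 12 were, so part of this count can follow from the choice of members. Over all measured members the unadjusted range was 1.61.

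The macrophage and leucocyte mean was 7.71, 6.83, 7.42, 8.34 and 6.82, and relative to all detected genes 3.16, 2.43, 3.02, 3.07 and 1.52. Replicate 5 was clearly the lowest on the relative scale, while on the unadjusted scale it was level with replicate 2, and after median scaling replicate 2 was the lowest (6.71 against 6.92). Of 43 genes 21 were highest on replicate 4 (30% of all genes) and 2 on replicate 5, while 16 were lowest on replicate 5 (11.3%) and 16 on replicate 2 (27.4%). The mean over all 102 immune genes, which adds cytokines, chemokines, complement and antigen presentation, was 6.14, 5.65, 6.07, 6.99 and 5.76, with a range of 1.33 that fell to 0.51 without replicate 4. Over all measured members the range was 1.09.

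The macrophage and axonal lists were also set against each other within each array, a difference that any constant added to an array leaves as it is. The macrophage mean less the axonal mean was 2.23, 0.92, 1.83, 2.14 and -0.14 on replicates 1 to 5. The order was therefore replicate 1, 4, 3, 2 and 5 from the highest to the lowest, and it was the same after quantile and after cyclic loess scaling. Relative to all detected genes, the axonal lists ran from low to high over replicates 1, 4, 3, 2 and 5 and the macrophage list from high to low over the same order, although the axonal means of replicates 1 and 4 were equal to 2 decimals. This mirrored order was not kept after quantile or cyclic loess scaling, where the macrophage list ran from high to low over replicates 1, 3, 4, 2 and 5 and the axonal lists from low to high over replicates 4, 1, 3, 5 and 2. With 5 arrays no correlation was computed. The macrophage mean less the glial mean was 3.41, 2.32, 2.59, 3.67 and 0.54, again lowest on replicate 5.

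**Figure D4:**
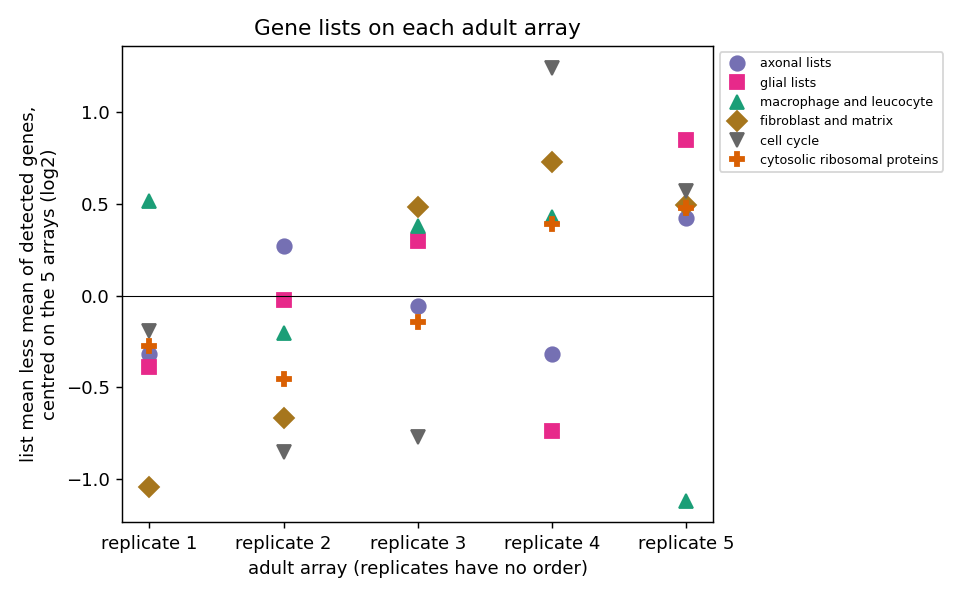
Mean log2 value of 6 gene lists on each adult array less the mean of all detected genes, centred on the 5 arrays. Replicate 5 holds the highest axonal and glial points and the lowest macrophage point, and replicate 4 the lowest glial and the highest cell cycle point.

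For each pair of arrays it was asked whether the median difference between the arrays over a list lay above or below that over all genes. Genes above background on either array of a pair were used, so a gene can enter through the array on which it is higher. The axonal and glial lists moved the same way in 9 of the 10 pairs of arrays, and the Schwann and satellite glia lists also in 9. The axonal and macrophage lists moved in opposite ways in 7 pairs and the glial and macrophage lists in 6. The 10 pairs share arrays and are not independent.

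Within replicates 1 to 3 the differences were smaller. On replicate 2, 54 of 81 axonal genes (66.7%), 11 of 13 Schwann genes and 7 of 12 satellite glia genes were higher than on replicate 1, where 45.6% of all genes were. Of 43 macrophage genes 13 were (30.2%), with a median difference of -0.92. The opposite movement of axonal and macrophage genes did not hold between replicates 1 and 3, where 40 of 74 axonal genes (54.1%), 8 of 12 Schwann genes and 17 of 40 macrophage genes (42.5%) were higher on replicate 3, against 42.7% of all genes. Between replicates 2 and 3, 37 of 81 axonal genes (45.7%), 7 of 13 Schwann genes and 26 of 39 macrophage genes (66.7%) were higher on replicate 3, against 46.9% of all genes. The axonal list mean ranged over 0.38 on these 3 arrays, the glial over 0.58 and the immune over 0.53.

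Replicates 4 and 5, which had like spreads and backgrounds, differed more. Over 10366 genes above background on either, 49.3% were higher on replicate 5 and the median difference was -0.02. Of 20 Schwann and myelin genes 19 were higher on replicate 5, with a median difference of 2.51, which is the list with the largest share. All 20 were above background on replicate 5 but 15 on replicate 4, so some entered only through replicate 5. Of 21 sensory peptides and receptors 17 were higher (median 1.96), and of 89 axonal genes 65 (median 0.61), with 24 of 31 motor genes among them. The 21 sensory peptides and receptors were likewise all above background on replicate 5, and 15 of them on replicate 4. Of 68 genes of oxidative phosphorylation 57 were higher on replicate 5 (median 0.56), whereas ribosomal proteins were nearly level (25 of 40, median 0.08).

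The immune lists went the other way between these arrays. Of 43 macrophage genes 3 were higher on replicate 5, with a median difference of -1.42, and of 30 lysosomal genes 4 (median -0.73). All 43 macrophage genes were above background on replicate 4, and 41 on replicate 5. Of 35 cytokines, chemokines and complement genes 8 were higher (median -1.13). Fibroblast genes were higher on replicate 5 in 10 of 32 cases (median -0.38). The control transcripts added before labelling were also lower on replicate 5 than on replicate 4, at 7.75 and 10.65. The hybridisation controls were lower as well, at 9.15 and 10.50. The 3′ to 5′ difference of Gapdh was larger on replicate 5, at 5.80 and 3.81, whereas that of actin was smaller, at 5.53 and 6.04. Their part in these differences was not tested.

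**Figure D5:**
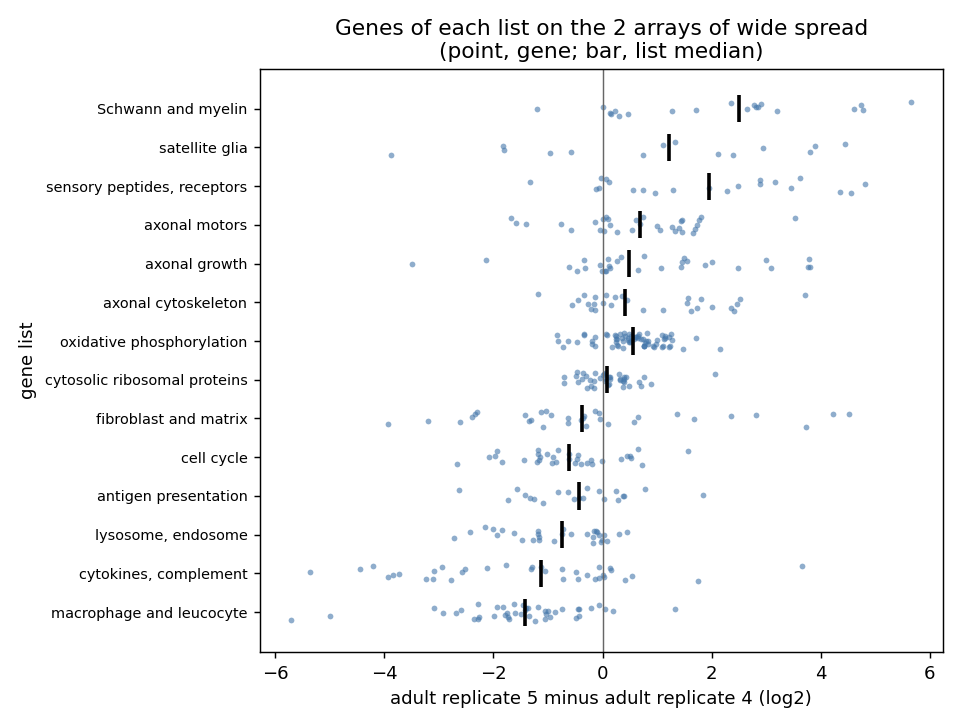
Adult replicate 5 minus adult replicate 4 in log2 units for each gene above background on either array, by gene list, with a bar at the list median. The Schwann list lies to the right (median 2.51), the macrophage list to the left (median -1.42) and the ribosomal proteins around 0.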

How the data were processed

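The adult arrays were analysed alone as 1 group of 5 samples, a number that limits the precision, without a comparison between groups. The authors deposited log2 probe set values. Per the submitters' processing notes RMA, a robust average over the probes of a set, produced them. Its software and options, and whether embryonic and adult arrays were run together, were not given in the sources used here. Base 2 was read from the range of the values. Of 31099 probe sets 57 are controls. By the platform annotation 20826 have a single symbol, 436 have several and 9780 are left without a name here. For 20758 of the single-symbol sets, the gene number matched the RefSeq gene table (GRCr8). A gene was represented by its probe set with the highest mean (4525 genes had several; of 18 further probe sets of named genes above background on all arrays, 8 had the same highest array). No detection calls are in the table, so the background level given in the report was used.

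The values were analysed with Python 3.11.15, pandas 2.3.3 and numpy 2.4.6, figures were drawn with matplotlib 3.10.9, and arrays were rescaled (quantile, median, cyclic loess) with limma 3.58.1 in R 4.3.3. A one-sided limma test of each gene against the background level, tested on simulated data, was an alternative for detection. The other alternatives were other background percentiles, other limits for a steady gene and leaving out each array. Genes named in the text were the 30 highest means, the 12 smallest SDs among genes above background on all arrays, the 10 widest ranges, the 3 highest members of each of 26 lists, a set of fixed genes, of which 23 are reported here, and the defining markers of 6 cell types. Gdi2, Prr13 and Rtn4, and in the closing section Mki67, Cdk1, Tnfrsf12a, Lum and Dhh, were named after their values were seen. The members and the lists were chosen with earlier results of these data known. The lists hardly overlap, but Stmn1 is on both the cytoskeletal and the cell cycle list.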

Additional observations from a re-analysis of the deposited data

Results flagged for a closer look

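In 11 of 175 results examined (6.29%), a single array stood far from the other 4, with a gap to the nearest array of more than 0.71 of the whole range. Chance sets apart about 1 in 20 groups of 5. On replicate 5 these were Tubb3 (gap 0.835 of the range), Gal (0.776), Gap43 (0.750), Npy (0.725), the mean of the Schwann and myelin list (0.727) and the mean of the glial lists (0.732), all of them high. On replicate 4 they were Actr2 (0.894), Ptgr1 (0.768), Mmp12 (0.714) and the mean of the cytokine, chemokine and complement list (0.780), also high. The gap of Actr2 spans only 0.35 log2 units. Cd8a, a chain of the CD8 co-receptor of T cells, was high on replicate 2 (0.723), at 4.93 against 2.78 to 3.37 elsewhere, but its other 2 probe sets were below background there (2.01 and 2.72).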

How the results depend on the processing

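The 100 highest genes shared 74 to 100 members with those under each alternative. The 3289 genes above background on all 5 arrays became 1989 with the 99th percentile as background, 5476 when 4 of 5 arrays sufficed and 9058 on replicates 4 and 5 alone, and leaving out an array gave 3311 to 4450. The one-sided limma test called 3310 genes, 2864 of them above background on all 5 arrays. The 218 steady genes became 125 with the 99th percentile, 28 with a range of at most 0.5, 700 with 1.5, 1181 on replicates 1 to 3 and 6196 on replicates 4 and 5, and 398 to 609 when an array was left out, since fewer arrays can only narrow a range. The range of the axonal mean, 1.48, was 0.79 after quantile scaling, 0.80 after cyclic loess, 0.74 relative to all detected genes, 0.38 on replicates 1 to 3, 0.76 on replicates 4 and 5, and 0.76 to 1.49 when an array was left out. The glial range, 1.97, was 0.58 on replicates 1 to 3 and 0.49 to 2.08 with an array left out. The immune range, 1.33, was 0.53 and 0.51 to 1.36. The cause was not tested. The sets of arrays 1 to 3 and 4 and 5, and the pairwise differences between arrays, were chosen after seeing the data. No paired analysis was possible because a single group was described without a test. With 5 arrays and a background that differs between them, genes near the background cannot be ranked, and a gene below it is not shown to be absent.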

Other observations

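Genes of cell division were above background on all 5 arrays about as often as genes in general, 7 of 33 measured (21.2%, against 23.1% of all genes). All 33 were above background on at least 1 array, where 76.6% of all genes were. Their number above background was 19, 13, 11, 33 and 33 on replicates 1 to 5. That of all 14217 genes was 6263, 6094, 5000, 9607 and 9779. Relative to all detected genes, the list mean was 0.05, -0.61, -0.53, 1.48 and 0.81. Pcna, the clamp of DNA polymerase, was at 7.88, 4.49, 7.33, 10.12 and 10.10, and Mki67, a marker of dividing cells, at 8.48, 3.63, 3.46, 8.13 and 6.16. Cdk1, the kinase that drives mitosis, was at 6.18, 2.82, 2.85, 7.68 and 7.23. Replicates 1, 4 and 5 were therefore above replicates 2 and 3 for Mki67 and Cdk1. Cks2, which binds that kinase, varied less, with 6.88, 5.52, 7.17, 7.15 and 7.60. Between replicates 4 and 5, 7 of 33 genes were higher on replicate 5 (median difference -0.61, against -0.02 for all genes). The fibroblast gene Lum was at 2.22, 3.32, 3.41, 9.28 and 8.94, high on replicates 4 and 5 but not on replicates 1 to 3. The mean of its list, 3.56, 3.77, 4.93, 6.04 and 5.84 on replicates 1 to 5, was likewise highest on replicates 4 and 5. On replicate 1, 9 of the 36 genes of the list were above background, where 6263 of all 14217 genes were. Those 9 included Mgp at 8.42, Fn1 at 5.65 and Pdgfra at 4.89. Which cells the cell cycle transcripts came from was not tested.

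Genes of the response to nerve injury and to stress were also measured. Of 29 injury genes 12 were above background on all 5 arrays (41.4%, against 23.1% of all genes). Anxa2, a membrane-binding annexin, was at 10.66, 9.15, 9.98, 12.01 and 11.62, and Anxa1 at 5.52, 8.74, 7.83, 10.06 and 9.92. Hspb1, a small heat shock protein of regenerating neurons, was at 5.06, 7.28, 6.63, 7.41 and 11.17, highest on replicate 5 as Gap43 and Gal were. Tnfrsf12a, a receptor of injured neurons and of many other cells, was at 2.72, 3.79, 3.92, 8.94 and 9.30 and above background on replicates 4 and 5 only. Dhh, a signal made by Schwann cells, was at 3.66, 2.84, 3.12, 3.38 and 8.12. Of 26 chaperones 19 were above background on all 5 arrays (73.1%), led by Hspa5 at 9.61. Of 30 proteasome and ubiquitin genes 18 were (60%), led by Psmb4 at 10.08. Iron and redox genes were above background on all 5 arrays in 17 of 26 cases (65.4%, against 23.1% of all genes). They were led by Txn1 and by the glutathione peroxidase Gpx1 at 10.51.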
